A study of Mus musculus with 8 samples.

Results

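The genes described here are the zinc finger genes named Zfp plus a number that lie on mouse chromosomes 7, 13 and 17. The rule reads the name and position of a gene and no LAD value, and it takes protein-coding genes of the GENCODE vM1 annotation of mm9 (the same assembly as NCBIM37) whose symbol is Zfp followed by digits. This gave 158 gene records with 156 distinct symbols, of 22367 protein-coding genes in all. Chromosome 7 held 86 of them, chromosome 13 held 33 and chromosome 17 held 39, and another 186 genes named in the same way lie on the other chromosomes. Zfp708 and Zfp738 each have 2 records.

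Most of these genes encode proteins with an array of C2H2 zinc fingers, small folds that each hold a zinc ion between a pair of cysteines and a pair of histidines and that together read a stretch of DNA. Many also carry a KRAB domain, which recruits the corepressor Trim28 and, through it, the histone methyltransferase Setdb1 and the heterochromatin protein HP1. KRAB zinc finger proteins are known for silencing transposable elements and imprinted loci, and their genes lie in clusters that arose by tandem duplication. Lamina associated domains (LADs) are long stretches of chromosome that touch the lamina under the nuclear envelope, and genes in them tend to be silent. Tmem120a and its paralog Tmem120b are transmembrane proteins of the nuclear envelope of fat cells.

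LADs were mapped in 3T3-L1 cells, an established mouse fibroblast line that turns into fat cells in culture, by DamID with LaminB1. In this method LaminB1 is fused to the bacterial adenine methylase Dam, so that GATC sites close to the lamina become methylated, and free Dam reports how accessible each site is. There were 4 conditions. Untreated preadipocytes were taken at day 0. Control adipocytes, which carried a control shRNA vector, were taken at day 9 of differentiation. A further condition was adipocytes at day 9 with an shRNA against Tmem120a. The last was adipocytes at day 9 with knockdown of both Tmem120a and Tmem120b (Tmem120a/b). All of the cells received Dam or LaminB1-Dam by lentivirus. Preadipocytes carried no shRNA, so differentiation and the control shRNA vector cannot be told apart in the comparison of those lists. The paper's results section gives a shorter time with Dam for preadipocytes than for adipocytes, while its methods give the same time for both. Any such difference in time cannot be told apart from differentiation either. Each condition was measured with 1 library of either kind, so values have no spread between replicates, no test was made, and a difference between lists cannot be set against error. RNA was not measured in these samples, so the labelled cell states were not checked with marker genes here. The paper measured RNA of parallel samples with microarrays, which were not used here, and reports reduced Tmem120a protein with its knockdown.

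The lists hold positions with no ratio or depth. They held 3914 LADs in preadipocytes, 2542 in adipocytes, 5723 with Tmem120a knockdown and 6971 with Tmem120a/b knockdown, which covered 44.9%, 45.1%, 43.8% and 43.7% of the chromosome lengths. The knockdown lists thus held more LADs of lower median length (59.1 and 60.8 kb, against 103 kb in adipocytes and 83.2 kb in preadipocytes) over nearly the same total length. The shortest LAD was 15.0 kb in each list. A region in LADs of preadipocytes alone is called released here, and a region in LADs of adipocytes alone is called recruited.

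The sites that DamID reads are GATC motifs, which are palindromic and so are the same on both strands. LAD borders on these 3 chromosomes fell on a GATC in 95.7 to 98.8% of cases in the 4 lists. The borders below bound the stretches that the results turn on. They are printed from NCBIM37 on the forward strand with 20 bases on either side, the GATC in capitals. The first 2 bound the LAD of the Tmem120a knockdown over Zfp235, Zfp114, Zfp111 and Zfp109, at chr7:24920928-24920971 and chr7:25031748-25031791.
Zfp111, Tmem120a knockdown, left: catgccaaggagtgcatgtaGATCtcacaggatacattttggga
Zfp111, Tmem120a knockdown, right: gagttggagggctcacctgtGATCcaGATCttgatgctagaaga
The next 4 bound the LAD over Zfp939 and Zfp619, which differed between the knockdown lists at both ends (chr7:46712979-46713022 and chr7:46781274-46781317 with Tmem120a knockdown, chr7:46728231-46728274 and chr7:46786087-46786130 with Tmem120a/b knockdown).
Zfp939, Tmem120a knockdown, left: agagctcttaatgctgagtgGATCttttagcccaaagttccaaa
Zfp939, Tmem120a knockdown, right: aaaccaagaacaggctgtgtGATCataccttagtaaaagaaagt
Zfp939, Tmem120a/b knockdown, left: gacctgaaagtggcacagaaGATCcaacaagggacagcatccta
Zfp939, Tmem120a/b knockdown, right: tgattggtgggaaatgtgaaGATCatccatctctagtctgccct
The last 3 belong to Zfp960 and Zfp97: the left border of the preadipocyte LAD over them (chr17:17090602-17090645), the left border of the released region (chr17:17186902-17186945) and the right border that the LAD and the region share (chr17:17312435-17312478).
Zfp97, preadipocyte LAD, left: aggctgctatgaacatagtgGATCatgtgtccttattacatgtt
Zfp97, released region, left: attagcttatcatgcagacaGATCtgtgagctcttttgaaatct
Zfp97, both, right: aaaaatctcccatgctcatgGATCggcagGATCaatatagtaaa

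GATC sites were as dense in these genes as elsewhere, with a median of 2.37 per kb of gene body against 2.41 over all protein-coding genes. A GATC stood in the 250 bases before the start site in 67 of 158 records (42.4%), against 40.2% of all protein-coding genes. Such a window is shown for 4 members whose start site changed state between lists, in the direction of transcription and with each GATC in capitals: Zfp960 (chr17:17200827-17201076, forward strand), Zfp97 (chr17:17258129-17258378, forward strand), Zfp773 (chr7:7089467-7089716, reverse strand) and Zfp192 (chr13:21622990-21623239, reverse strand).
Zfp960: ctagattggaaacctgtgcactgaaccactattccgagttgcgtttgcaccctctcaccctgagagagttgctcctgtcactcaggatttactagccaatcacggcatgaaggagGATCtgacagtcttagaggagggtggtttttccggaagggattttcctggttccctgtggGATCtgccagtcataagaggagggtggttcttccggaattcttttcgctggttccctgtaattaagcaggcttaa
Zfp97: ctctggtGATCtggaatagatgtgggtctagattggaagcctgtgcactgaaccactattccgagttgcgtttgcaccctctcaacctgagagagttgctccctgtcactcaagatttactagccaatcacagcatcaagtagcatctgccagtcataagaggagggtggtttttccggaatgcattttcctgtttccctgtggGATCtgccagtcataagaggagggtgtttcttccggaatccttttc
Zfp773: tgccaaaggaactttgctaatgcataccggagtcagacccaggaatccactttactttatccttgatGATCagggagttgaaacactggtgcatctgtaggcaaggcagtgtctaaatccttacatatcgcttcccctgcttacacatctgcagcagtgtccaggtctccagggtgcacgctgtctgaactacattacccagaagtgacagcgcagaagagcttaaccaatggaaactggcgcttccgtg
Zfp192: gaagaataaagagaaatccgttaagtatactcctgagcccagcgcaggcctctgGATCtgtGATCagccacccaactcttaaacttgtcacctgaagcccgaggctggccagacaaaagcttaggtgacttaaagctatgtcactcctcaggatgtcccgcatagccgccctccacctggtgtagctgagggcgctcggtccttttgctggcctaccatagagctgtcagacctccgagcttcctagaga
The windows of Zfp960, Zfp97 and Zfp192 held 2 GATC sites each and that of Zfp773 held 1. No GATC stood in the same window of Zfp583, Zfp111, Zfp939, Zfp619 or Zfp458, whose start sites also changed state.

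Most of the members, but not all, had an array of matches to a C2H2 finger pattern in their longest coding sequence. The pattern asked for 2 residues between the cysteines, 12 before the histidines and 3 to 5 between those. Fingers of other spacing were not counted, so a low count need not mean few fingers. The pattern matched several times in 149 of 158 records, 1 time in 6 (Zfp428, Zfp143, Zfp511, Zfp367, Zfp598 and Zfp523) and not at all in 3. The median was 11 matches and the highest count was 33, in Zfp619. The 3 without a match were Zfp850, whose coding sequence here gives 140 residues, Zfp414 and Zfp36. Zfp36 is tristetraprolin, a CCCH finger protein that binds AU-rich mRNA and promotes its decay. The coding sequences of the neighbours Zfp960 and Zfp97 were equal at 1611 of 1641 bases (98.2%). The finger shown for both, with the cysteine and histidine codons in capitals, was equal at 83 of 84 bases.
Zfp960: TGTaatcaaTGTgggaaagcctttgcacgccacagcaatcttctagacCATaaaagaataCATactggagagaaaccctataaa
Zfp97: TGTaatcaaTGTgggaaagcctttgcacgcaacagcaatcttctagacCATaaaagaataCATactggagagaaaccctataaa
Short reads from copies this alike cannot always be placed at 1 of them, and how such reads were handled is not given in the sources used here, so the state of recent duplicates is uncertain at the level of the single gene.

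The first question was how many of the zinc finger genes lay in LADs in each condition. The gene body, from start to end of the annotated gene, met a LAD in 27 of 158 members (17.1%) in preadipocytes, where the share over all protein-coding genes was 26.2%. In adipocytes it was 21 members (13.3%, against 23.3% of all genes). With Tmem120a knockdown it was 39 (24.7%, against 27.5%), and with Tmem120a/b knockdown 41 (25.9%, against 29.5%). The members thus lay below the share of all genes in each list as deposited. With gaps under 50 kb closed, Tmem120a knockdown turned, at 28.5% of members against 28.2% of all genes. On chromosome 17 the members lay above its other genes in each list (33.3%, 25.6%, 28.2% and 33.3%, against 19.2%, 17.1%, 20.4% and 24.0%). On chromosome 7 they lay below in each list. On chromosome 13 they lay above with Tmem120a knockdown (39.4%, against 32.1%) and Tmem120a/b knockdown (33.3%, against 33.1%) and below in the other lists. With LADs of at least 100 kb alone, the counts in the knockdowns were no longer higher: the bodies of 20 members met one in preadipocytes (12.7%, against 21.8% of all genes), 21 in adipocytes (13.3%, against 21.1%), 19 with Tmem120a knockdown (12%, against 20.1%) and 19 with Tmem120a/b knockdown (12%, against 20.6%).

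The start site alone, which does not depend on gene length, also lay below the share of all genes in each list as deposited. It lay in a LAD in 19 members in preadipocytes (12%, against 23.3% of all genes) and 19 in adipocytes (12%, against 21.2%). With Tmem120a knockdown it was 29 (18.4%, against 22.6%) and with Tmem120a/b knockdown 31 (19.6%, against 23.8%). With gaps under 50 kb closed, Tmem120a knockdown turned, at 24.7% of members against 24.1% of all genes. On chromosome 17 starts of members lay above those of its other genes (25.6%, 20.5%, 20.5% and 23.1%, against 16.9%, 15.6%, 16.9% and 19.4%). On chromosome 7 they lay below in each list, and on chromosome 13 above with Tmem120a knockdown alone (27.3%, against 23.9%). With LADs of at least 100 kb alone, 16, 19, 16 and 17 starts lay in one in the same order of lists, against 20.3%, 19.9%, 18.6% and 18.7% of all genes and 10.1%, 12%, 10.1% and 10.8% of the members. The members' bodies had a median length of 13.9 kb and those of all genes 15.4 kb.

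**Figure D1:**
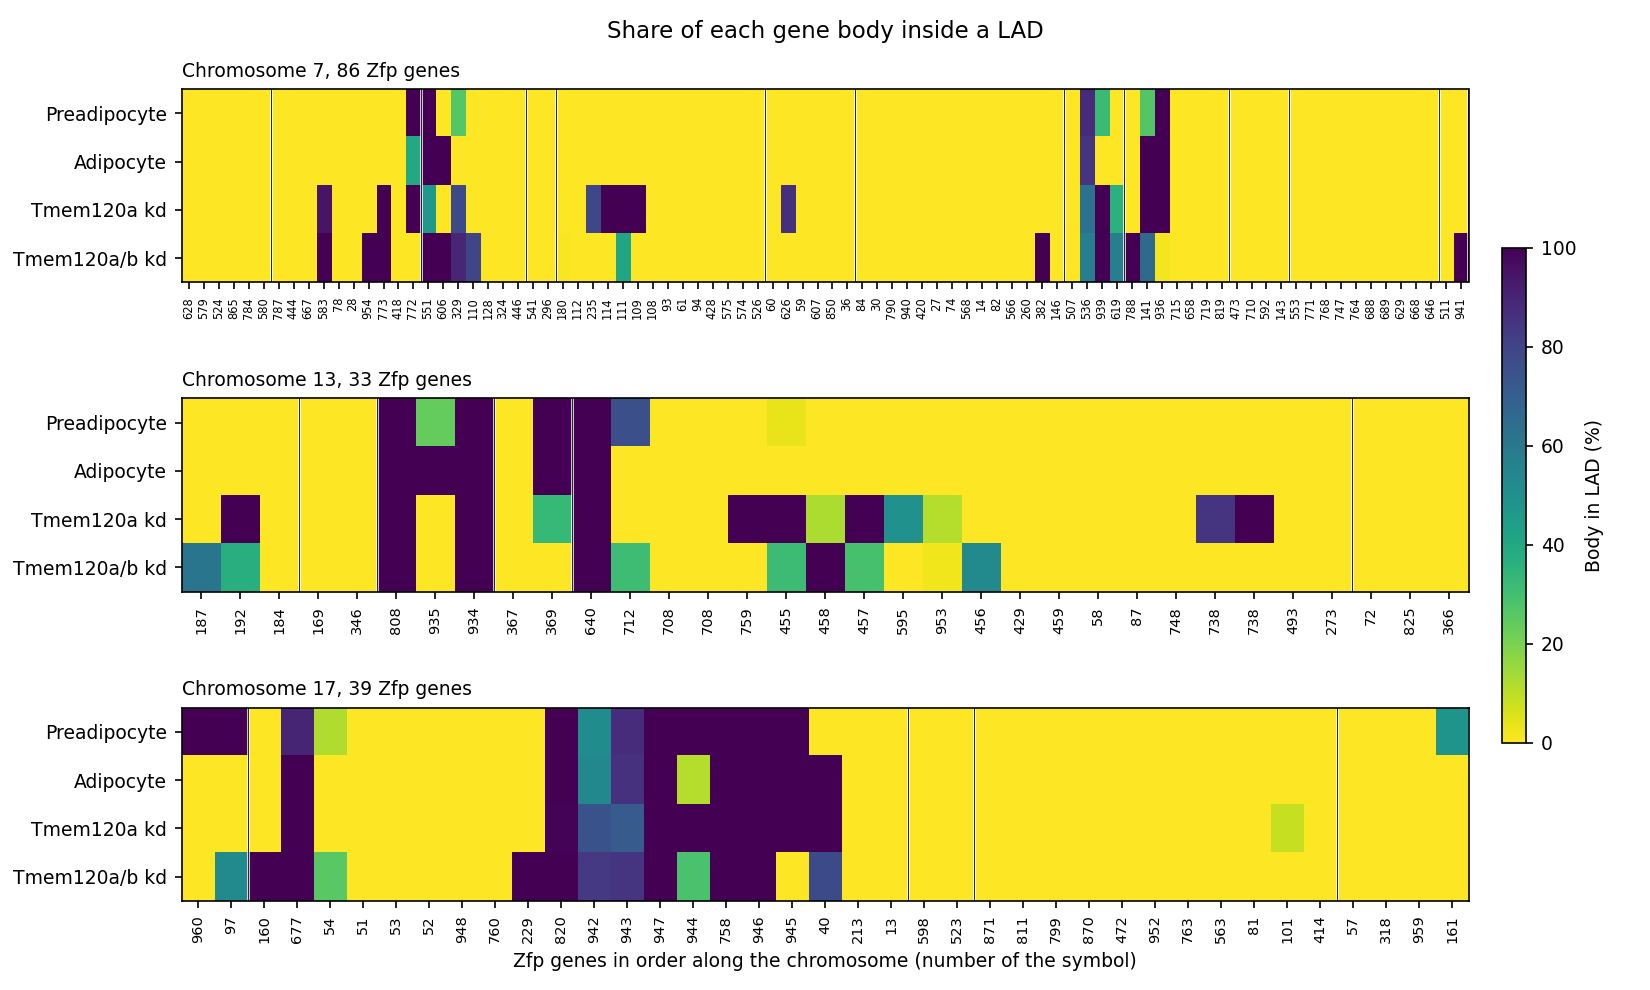
Share of each gene body inside a LAD (colour, 0 to 100%) for all 158 Zfp records in chromosome order (columns) in the 4 lists (rows), with lines between clusters and genes outside clusters. At least 50% of the body is covered in 20 genes in preadipocytes, 19 in adipocytes, 32 with Tmem120a knockdown and 31 with Tmem120a/b knockdown.

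A LAD was met in all 4 lists by 15 members (9.49%, against 19.3% of all genes) and in no list by 102 (64.6%, against 63.7%). Over the 3 chromosomes together, these shares lay close for genes outside LADs throughout and further apart for genes inside throughout. Inside throughout were 4.65%, 9.09% and 20.5% of members on chromosomes 7, 13 and 17, against 30.1%, 16.7% and 15.3% of their other genes. Outside throughout were 74.4%, 48.5% and 56.4%, against 56.6%, 56.3% and 71.3%, so the chromosomes went different ways. The remaining 41 members changed state between lists (25.9%, against 16.9% of all genes). Of these, 9 met a LAD with Tmem120a knockdown alone (5.7%, against 2.5%) and 10 with Tmem120a/b knockdown alone (6.33%, against 4.05%). Zfp960 and Zfp161 did so in preadipocytes alone (1.27%, against 1.59%), and no member did so in adipocytes alone, against 0.434% of all genes.

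The members were set beside other families of clustered genes, with no test. The olfactory receptor genes of chromosome 7, which encode odorant receptors of the nose, met a LAD in 229 of 240 cases in adipocytes (95.4%) and in 205 (85.4%) with Tmem120a/b knockdown. The vomeronasal type 2 receptor genes, which encode pheromone receptors, did so in 119 of 119 cases in adipocytes and in 118 in each other list. The 219 other genes inside the spans of the zinc finger clusters met a LAD in 70 cases in adipocytes (32.0%), against 19 of 131 clustered members (14.5%).

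The 158 members fell into 13 clusters of at least 3, in which neighbours lay at most 1 Mb apart. These clusters held 131 members and 27 lay outside them. They fell into a few kinds by their LADs.

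The longest cluster was Zfp160 to Zfp13 on chromosome 17, with 20 members over 2591 kb. LADs covered 81.0% of its span in preadipocytes, 80.3% in adipocytes, 79.8% with Tmem120a knockdown and 81.3% with Tmem120a/b knockdown, in 8, 5, 9 and 10 pieces. The bodies of 10, 10, 10 and 12 members met them. Zfp947, Zfp758 and Zfp946 lay wholly inside LADs in every list. At the ends of the cluster, Zfp160 lay outside LADs in 3 lists and wholly inside with Tmem120a/b knockdown, and Zfp13 lay outside in all 4. Of the 6 members between Zfp677 and Zfp229, Zfp54 met a LAD in 2 lists, and Zfp51, Zfp53, Zfp52, Zfp948 and Zfp760 met none in any list.

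The small cluster Zfp808 to Zfp934 on chromosome 13 lay almost wholly in LADs. They covered 96.6% of its 391 kb in preadipocytes, 100.0% in adipocytes, 89.6% with Tmem120a knockdown and 85.4% with Tmem120a/b knockdown. Zfp808 and Zfp934 stayed wholly inside in each list. Zfp935, between them, had 23.6% of its body inside LADs in preadipocytes, 100.0% in adipocytes and 0.0% in each knockdown, where its start lay 19.7 and 24.4 kb from a LAD.

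Several clusters had LADs over more than 50% of their span, while under 50% of their members met one in preadipocytes and in adipocytes. The Zfp787 to Zfp772 cluster on chromosome 7 was covered at 59.4 to 62.3% in the 4 lists, while 1 of its 10 members, Zfp772, met a LAD in each of the preadipocyte and adipocyte lists and 3 did in each knockdown. The Zfp551 to Zfp446 cluster was covered at 59.1% in preadipocytes and 68.4% in adipocytes, with 2 of 7 members in LADs in each, and 2 members with Tmem120a knockdown and 4 with Tmem120a/b knockdown met one. The Zfp788 to Zfp819 cluster was covered at 77.3% and 79.6%, again with 2 of 7 members in LADs, and 2 and 3 met one in the knockdowns. The spans also held 17, 9 and 27 other genes. At the ends of these clusters, Zfp787, Zfp446 and Zfp819 lay outside LADs in every list, Zfp551 was wholly inside in 3 lists and at 46.1% with Tmem120a knockdown, and Zfp788 was reached with Tmem120a/b knockdown alone, wholly. Zfp772 had 100.0%, 39.8%, 100.0% and 0.0% of its body inside, in the order preadipocytes, adipocytes, Tmem120a knockdown and Tmem120a/b knockdown. In that order Zfp936 had 100.0%, 100.0%, 100.0% and 1.90%.

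In several further clusters nearly all members lay outside LADs in every list. They include Zfp60 to Zfp36 and Zfp871 to Zfp414, described below, in each of which 1 member met a LAD, with Tmem120a knockdown. Zfp628 to Zfp580 and Zfp553 to Zfp646, with 6 and 10 members on chromosome 7, had no LAD in any list. The starts in Zfp628 to Zfp580 lay 75.5 to 212 kb from the nearest LAD in adipocytes, and those in Zfp553 to Zfp646 lay 971 to 1614 kb away. The median GC content of the bodies in these clusters was 53.0% and 52.6%, the highest of the 13 clusters. The Zfp84 to Zfp146 cluster, 14 members within 401 kb on chromosome 7 with 2 other genes between them, had no LAD in 3 lists. With Tmem120a/b knockdown 1 LAD of 18.0 kb covered Zfp382, wholly.

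The Zfp84 to Zfp146 cluster holds Zfp30, known for binding at the gene of the adipogenic factor Pparg, and Zfp568, known for repressing a transcript of the growth factor Igf2 in the embryo. Zfp30 lay outside LADs in every list, with its start 1425 kb from the nearest LAD in preadipocytes, 113 kb in adipocytes, 225 kb with Tmem120a knockdown and 58.4 kb with Tmem120a/b knockdown. For Zfp568 the distances were 1225, 313, 425 and 133 kb. Both thus lay nearer to a LAD in the adipocyte list than in the preadipocyte list.

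Zfp57, Zfp36 and Zfp296 also lay outside LADs throughout. Zfp57, on chromosome 17, keeps methylation at imprinted loci, and its start lay 112, 104, 98.9 and 102 kb from a LAD in the order given above. Zfp36 lay 1290.0, 1267, 562 and 1248 kb away. Zfp296, a gene of pluripotent and germ cells, lay 396, 404, 405 and 430.4 kb away.

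Of the 27 members outside clusters, 6, 2, 4 and 5 met a LAD in the 4 lists, again in the order preadipocytes, adipocytes, Tmem120a knockdown and Tmem120a/b knockdown. These were 22.2%, 7.41%, 14.8% and 18.5% of them, below the share of all genes in each list. Zfp536, a repressor known from neuronal differentiation and at 451 kb the longest member, was mostly inside LADs, at 87.7%, 84.8%, 62.7% and 57.1% of its body. Zfp143, an activator of small nuclear RNA and other genes, stayed outside, 624, 643, 224 and 630.4 kb from a LAD. Zfp598, a ubiquitin ligase that acts on collided ribosomes, also stayed outside, 1143, 1137, 381 and 1129 kb away. For Zfp143 and Zfp598 the nearest LAD was closest with Tmem120a knockdown.

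The second question was what changed with differentiation. Of the 27 members in a LAD in preadipocytes, 8 met none in adipocytes (29.6%, against 18.3% of all genes in preadipocyte LADs). Of the 131 outside LADs in preadipocytes, 2 met one in adipocytes (1.53%, against 2.55%). Counted over all 158, a released region was met by 7 members (4.43%, against 5.76% of all genes) and a recruited region by 2 (1.27%, against 3.08%). With all pieces of the subtraction of the 2 lists in place of the deposited regions, 12 members met a released piece (7.59%, against 7.22%) and 6 a recruited piece (3.8%, against 4.44%), and 3 members had at least 50% of the body in a deposited released region (1.9%, against 3.01%). The counts of members that left or entered LADs are small, and they turned with how much of a body had to be covered: when at least 50% of the body was asked for, 5 members left LADs (25% of 20, against 15.9%) and 4 entered them (2.9%, against 2.49%), and with LADs of at least 100 kb alone the counts were 3 (15%, against 13.6%) and 4 (2.9%, against 2.88%). By start sites, 4 of 19 left LADs (21.1%, against 16.9% of all genes) and 4 of 139 entered them (2.88%, against 2.4%).

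The neighbours Zfp960 and Zfp97 changed over the whole body. Both lay wholly inside a 222 kb LAD in preadipocytes (chr17:17090625-17312457). In adipocytes both bodies lay wholly outside LADs, with the starts 14.2 and 71.5 kb from the nearest, and a released region of 126 kb (chr17:17186925-17312457) covered both. With Tmem120a knockdown both stayed outside, at 72.8 kb and 130.1 kb. With Tmem120a/b knockdown Zfp960 stayed outside and 52.3% of Zfp97 met a LAD of 34.3 kb.

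The other 5 members in released regions changed over part of the body. On chromosome 13, Zfp712 had 75.7% of its body inside LADs in preadipocytes, 0.0% in adipocytes, 0.0% with Tmem120a knockdown and 31.2% with Tmem120a/b knockdown. Zfp161, a POZ domain repressor on chromosome 17, had 48.2% in preadipocytes and 0.0% in the other lists. Zfp939 on chromosome 7 went from 31.9% to 0.0% and was wholly inside a LAD in each knockdown. Zfp54 on chromosome 17 had 12%, 0.0%, 0.0% and 25.5%, its start being inside the LAD in preadipocytes and with Tmem120a/b knockdown. Zfp455 on chromosome 13 had 3.42% in preadipocytes, at its end, so that its release rests on a short overlap. The eighth member that left LADs, Zfp329, had 26.3% of its body inside LADs in preadipocytes and met no released region.

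The 2 recruited members lay wholly inside their regions. Zfp606 on chromosome 7 had 0.0% of its body inside LADs in preadipocytes and 100.0% in adipocytes, where the gap of 57.0 kb between 2 preadipocyte LADs was closed (chr7:13051552-13108555). It was at 0.0% with Tmem120a knockdown and 100.0% with Tmem120a/b knockdown. Zfp40 on chromosome 17 went from 0.0% to 100.0%, over a region of 39.8 kb, and was at 100.0% with Tmem120a knockdown and 77.6% with Tmem120a/b knockdown. The start sites of 2 further members, Zfp141 and Zfp677, entered LADs in adipocytes while their bodies met a LAD in both lists: Zfp141 went from 26.8% to 100.0% of its body and Zfp677 from 89.5% to 100.0%.

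**Figure D2:**
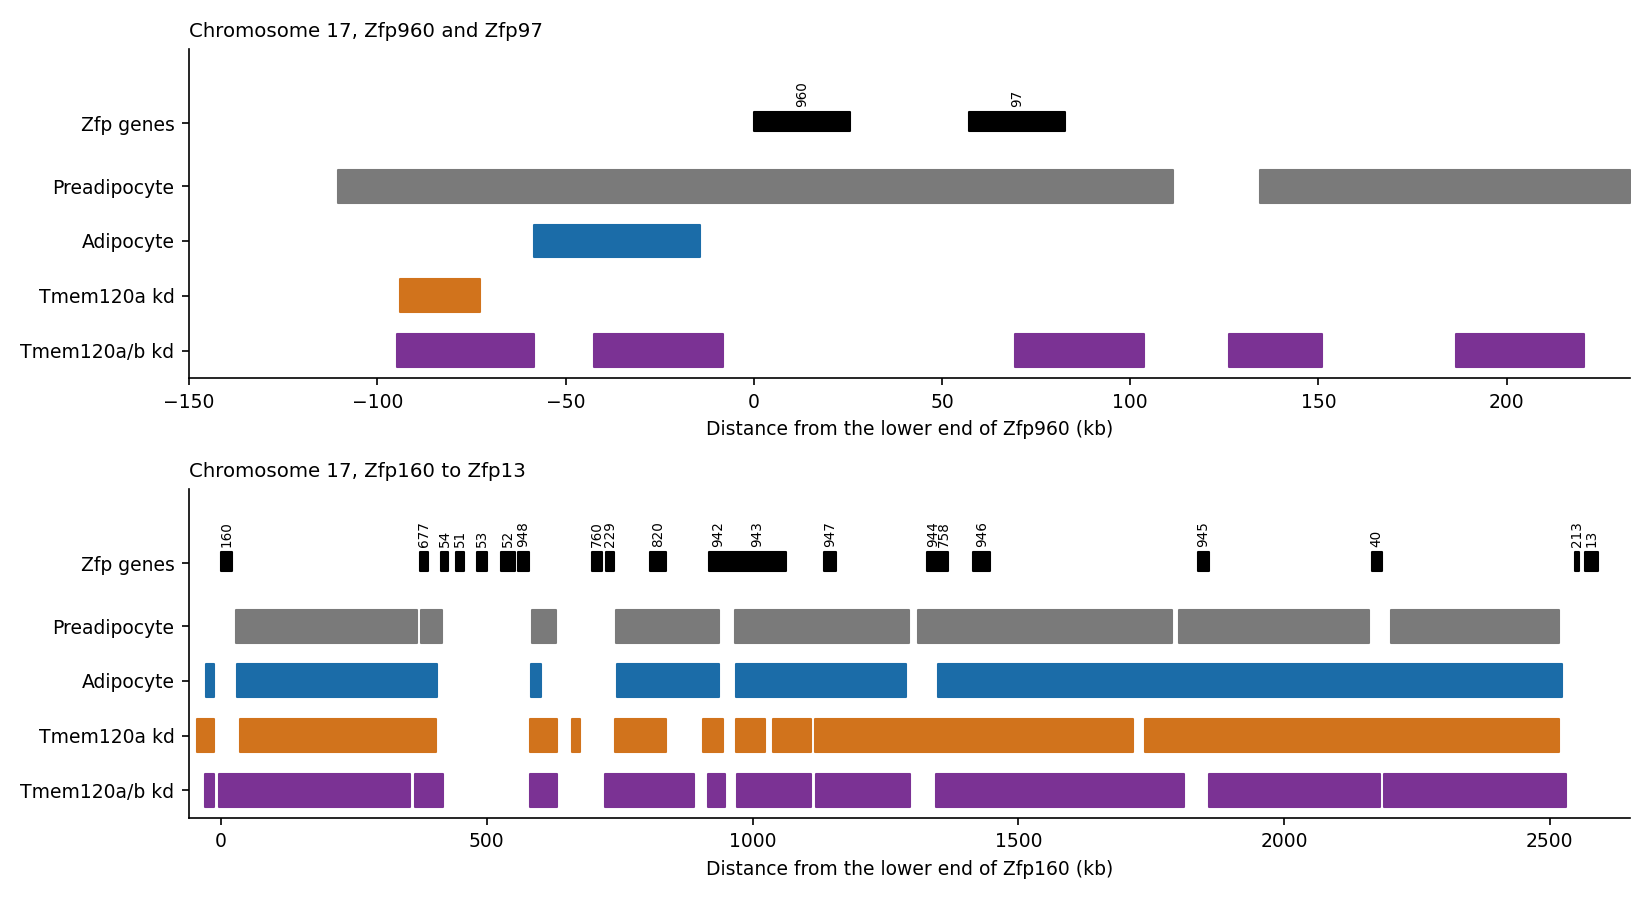
LADs of the 4 lists (coloured bars) and Zfp genes (black, labelled by the number of the symbol) around Zfp960 and Zfp97 and across the Zfp160 to Zfp13 cluster on chromosome 17, by distance in kb from the lower end of the first gene. The part of the preadipocyte LAD that covers Zfp960 and Zfp97 is missing from the adipocyte row, while about 80% of the larger cluster lies in LADs in each row.

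The third question was what changed in adipocytes with knockdown of Tmem120a or of Tmem120a/b. Both comparisons share the adipocyte list, so they are not independent and each is given with its own values. Of the 137 members outside LADs in adipocytes, 20 met a LAD with Tmem120a knockdown (14.6%, against 7.99% of all genes outside adipocyte LADs) and 24 with Tmem120a/b knockdown (17.5%, against 10.9%). Counted together, 33 met a LAD in a knockdown (24.1%, against 14.9%). Of the 129 members in a LAD in neither preadipocytes nor adipocytes, 27 met one in a knockdown (20.9%, against 11.4%). The start sites gave 15 of 139 with Tmem120a knockdown (10.8%, against 4.78%) and 18 of 139 with Tmem120a/b knockdown (12.9%, against 6.71%).

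Losses were counted in the same way. Of the 21 members in a LAD in adipocytes, 2 met none with Tmem120a knockdown (9.52%, against 8.37%) and 4 met none with Tmem120a/b knockdown (19.0%, against 9.02%). The loss with Tmem120a knockdown was 4 of 19 when at least 50% of the body was asked for (21.1%, against 10.1%) and 0 of 22 with gaps under 50 kb closed (against 7.06%). With LADs of at least 100 kb alone the losses were 7 (33.3%, against 13.6%) and 9 (42.9%, against 17% of all genes) of 21, beside gains of 5 and 7. By start sites the losses were 5 of 19 (26.3%, against 11.5%) and 6 of 19 (31.6%, against 12.7%).

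The shares of gained genes were set beside those of other gene sets, with no test of the difference. Among the zinc finger genes of the other chromosomes, 6 of 161 outside adipocyte LADs met one with Tmem120a knockdown (3.73%) and 19 with Tmem120a/b knockdown (11.8%). Among the other genes inside the cluster spans, the counts were 8 of 149 (5.37%) and 17 (11.4%). In smaller sets some shares were above those of the members. Of the 11 olfactory receptor genes of chromosome 7 outside adipocyte LADs, 3 (27.3%) and 4 (36.4%) met one in the knockdowns, and of 18 Zscan and Zkscan genes 2 (11.1%) and 4 (22.2%) did. Among the members, the Tmem120a knockdown gained 10 of 80 on chromosome 7, 9 of 28 on chromosome 13 and 1 of 29 on chromosome 17. The Tmem120a/b knockdown gained 12, 8 and 4. As shares these were 12.5%, 32.1% and 3.45%, and then 15%, 28.6% and 13.8%. Among the other genes of the same chromosomes the shares were 6.31%, 16.5% and 5.28% with Tmem120a knockdown, and 6.78%, 17.2% and 9.17% with Tmem120a/b knockdown. Chromosome 13 thus had the highest shares of the 3 for members and for other genes alike, and the share of members on chromosome 17 with Tmem120a knockdown lay below that of the other genes there. Neighbours that share a LAD are not separate observations: the 20 members gained with Tmem120a knockdown lay in 12 LADs and the 24 gained with Tmem120a/b knockdown in 20.

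**Figure D3:**
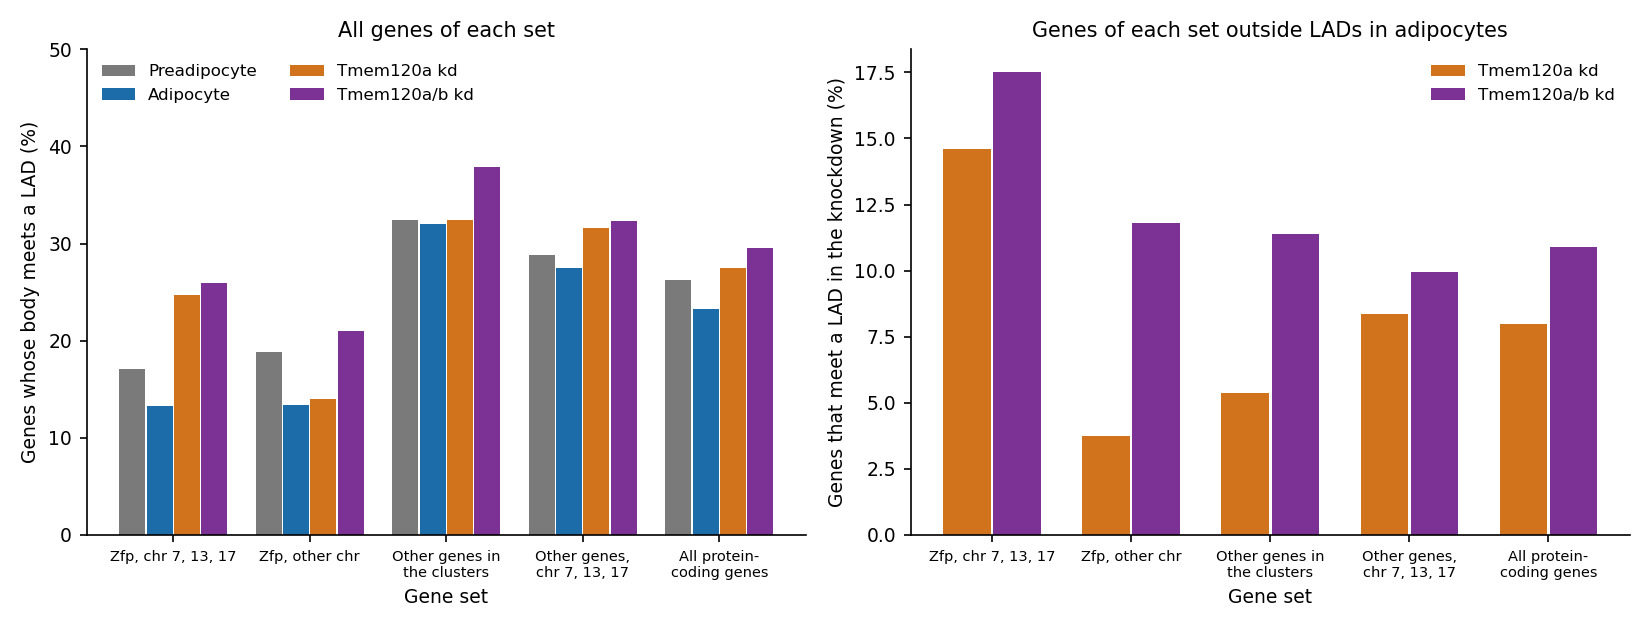
Share of genes whose body meets a LAD in each list (left, % of all genes of a set) and share of genes outside adipocyte LADs that meet one in each knockdown (right, %), for the Zfp genes of chromosomes 7, 13 and 17 and 4 comparison sets; each bar is 1 list with no replicate. The Zfp genes of these chromosomes go from 13.3% in adipocytes to 24.7% and 25.9% in the knockdowns, and have the highest bars of the sets drawn on the right.

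The LADs over the gained members were mostly short, as were those of the whole knockdown lists, in which 3732 of 5723 with Tmem120a knockdown and 4485 of 6971 with Tmem120a/b knockdown were under 100 kb. With Tmem120a knockdown the 12 LADs had a median length of 54.5 kb, and 10 were under 100 kb. With Tmem120a/b knockdown the 20 had a median of 49.5 kb, and 14 were under 100 kb. The 13 adipocyte LADs that met a member had lengths from 191.7 kb upwards. With LADs under 100 kb left out, 5 of 137 members were gained with Tmem120a knockdown (3.65%, against 2.33% of all genes) and 7 with Tmem120a/b knockdown (5.11%, against 3.90%). With LADs under 30 kb left out, a limit chosen after seeing the data, the gains were 18 (13.1%, against 6.04%) and 19 (13.9%, against 8.41%). The knockdown lists held more short LADs over the whole genome, as given above, and the part of this in the members' gains was not tested.

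On chromosome 7, a LAD of 111 kb with Tmem120a knockdown (chr7:24920951-25031770) covered 4 neighbours in the Zfp180 to Zfp526 cluster, bounded by the borders shown above. It covered 78.3% of Zfp235 and the whole of Zfp114, Zfp111 and Zfp109, and these 4 genes lay wholly outside LADs in both the preadipocyte and the adipocyte list. In the adipocyte list their starts lay 75 to 178 kb from the nearest LAD. With Tmem120a/b knockdown a LAD of 17.4 kb covered 41.3% of Zfp111, including its start, and the other 3 were at 0.0%. The members from Zfp108 to Zfp526 stayed outside in every list. Zfp180, at the left end, was touched with Tmem120a/b knockdown at 0.85% of its body.

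On chromosome 13, the Zfp640 to Zfp273 cluster held 20 members over 1156 kb. It is the stretch known for the regulator of sex-limitation genes, KRAB zinc finger genes that repress male-pattern genes of the liver. LADs covered 28% of it in preadipocytes, 20.3% in adipocytes, 40.6% with Tmem120a knockdown and 39.5% with Tmem120a/b knockdown. The bodies of 3, 1, 9 and 7 members met them. Zfp640, at one end, was the member inside in adipocytes and lay wholly inside in every list, and Zfp273, at the other end, lay outside in every list.

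Within this cluster the covered members differed between the knockdowns. With Tmem120a knockdown a LAD of 24.2 kb covered the whole of Zfp759, a LAD of 58.7 kb the whole of Zfp455, and a LAD of 55.3 kb the whole of Zfp457 with 49.3% of Zfp595, 12.4% of Zfp458 and 11% of Zfp953. With Tmem120a/b knockdown a LAD of 91.9 kb covered the whole of Zfp458 with 31.4% of Zfp455 and 29.1% of Zfp457, and Zfp759 and Zfp595 were at 0.0%. Zfp456 had 52.5% of its body inside LADs with Tmem120a/b knockdown and 0.0% elsewhere. Both records of Zfp738 met a LAD with Tmem120a knockdown, at 84.9% and 100.0%, and lay outside in the other lists. Of these genes, the start of Zfp458 lay in a LAD in both knockdowns and in neither of the other lists.

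**Figure D4:**
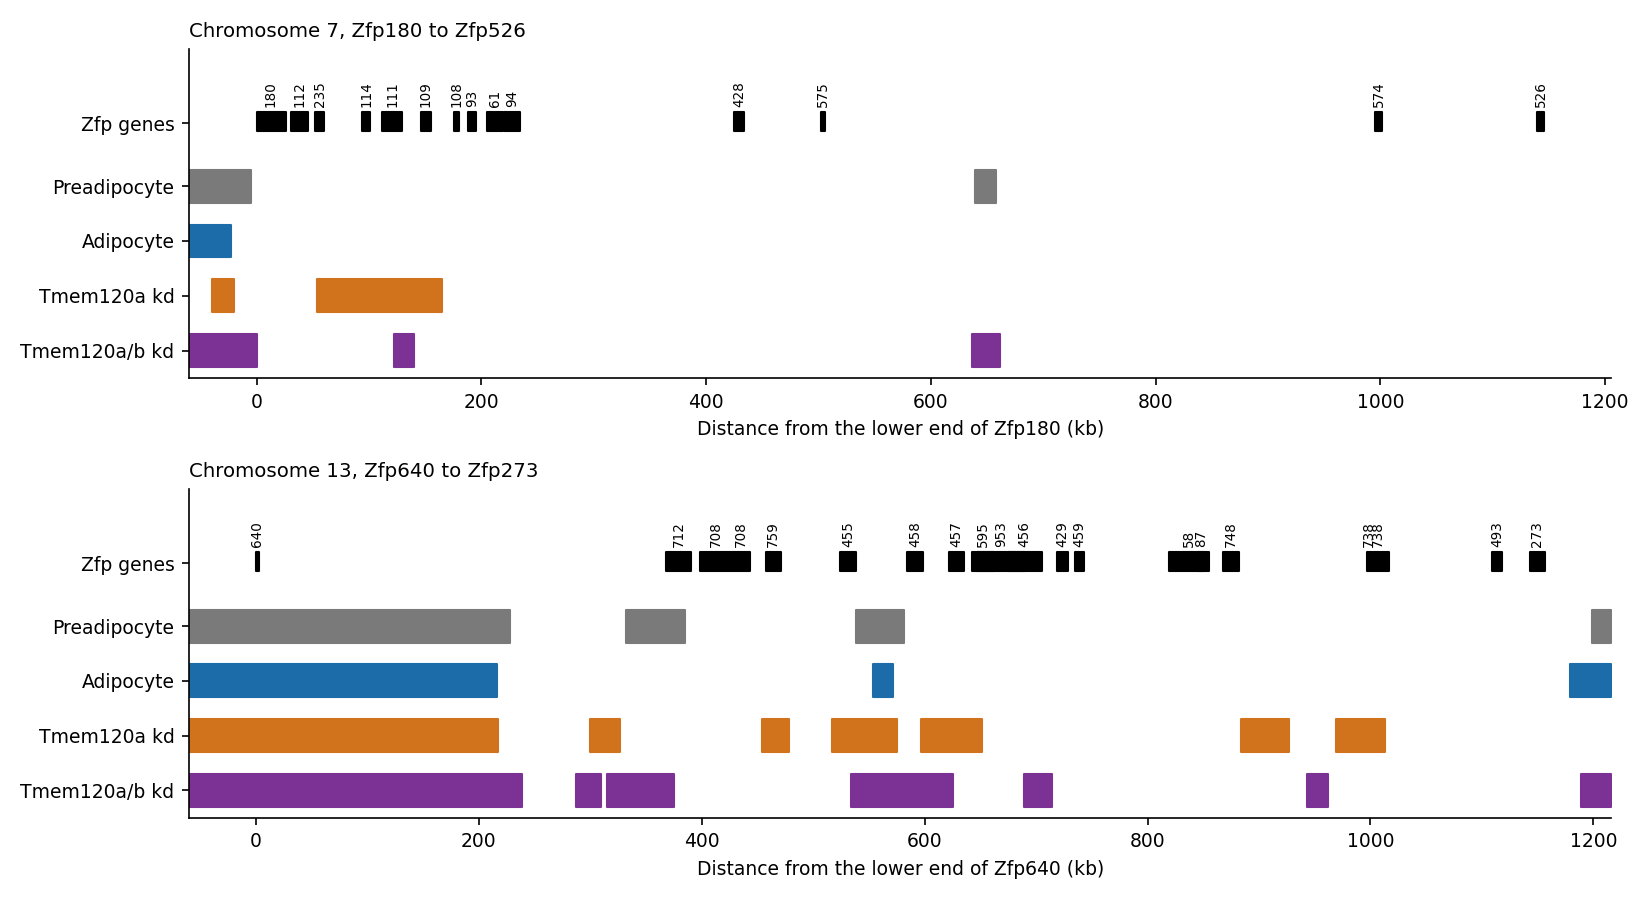
LADs of the 4 lists (coloured bars) and Zfp genes (black, labelled by the number of the symbol) across the Zfp180 to Zfp526 cluster of chromosome 7 and the Zfp640 to Zfp273 cluster of chromosome 13, by distance in kb from the lower end of the first gene. The 111 kb LAD of the Tmem120a knockdown has no counterpart in the preadipocyte or adipocyte rows, and the chromosome 13 cluster holds more LAD pieces in the knockdown rows (7 and 6) than in the adipocyte row (2).

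The Zfp60 to Zfp36 cluster of chromosome 7 had no LAD in 3 lists, and a LAD of 53.7 kb covered 86.4% of Zfp626 with Tmem120a knockdown. The Zfp187 to Zfp184 cluster of chromosome 13 held 3 members among 31 other genes. None of the 3 met a LAD in preadipocytes or adipocytes. With Tmem120a knockdown the whole of Zfp192 met one, and with Tmem120a/b knockdown 61% of Zfp187 and 37.2% of Zfp192 did. Zfp184 stayed outside.

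The members named because their start lay outside LADs in preadipocytes and adipocytes and inside one in each knockdown list were Zfp583, Zfp773, Zfp111, Zfp939, Zfp619, Zfp192 and Zfp458. Zfp583 had 94.6% of its body inside LADs with Tmem120a knockdown and 100.0% with Tmem120a/b knockdown, against 0.0% in the others, and its start lay 91.2 kb from a LAD in adipocytes. Zfp773 was wholly inside in each knockdown and at 0.0% in the others. Zfp619 had 36.0% and 57.3% of its body in the LAD that also held Zfp939. Zfp192 had 100.0% with Tmem120a knockdown and 37.2% with Tmem120a/b knockdown.

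The start sites of Zfp369 and Zfp935 were inside LADs in preadipocytes and adipocytes and outside in each knockdown. Zfp369 on chromosome 13, a relative of the neurotrophin receptor interacting factor, was wholly inside in preadipocytes and in adipocytes. It was at 33% with Tmem120a knockdown and 0.0% with Tmem120a/b knockdown, where its start lay 17 and 37.2 kb from a LAD. The LAD over it reaches to Zfp640, and its left border, before the gene in adipocytes at position 65366653 of chromosome 13, lay inside the gene with Tmem120a knockdown at 65397149 and past its end with Tmem120a/b knockdown at 65417326. The further losses with Tmem120a/b knockdown were Zfp772 (39.8% in adipocytes, 0.0% in the knockdown) and Zfp945 (100.0% and 0.0%), and the further loss with Tmem120a knockdown was Zfp606, described above.

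Some gains extended an adipocyte LAD and others stood apart from one. With Tmem120a knockdown 3 of the 12 LADs over gained members met an adipocyte LAD, and with Tmem120a/b knockdown 10 of the 20 did. Over the whole lists 69.5% and 67.9% of LADs did so, but the 12 and 20 were picked for members outside adipocyte LADs, so these shares are not comparable. Among those with no adipocyte or preadipocyte LAD under them were the LADs over Zfp626 and Zfp101, seen with Tmem120a knockdown, and over Zfp382 and Zfp110, seen with Tmem120a/b knockdown. Zfp160, Zfp229, Zfp788 and Zfp941 were reached by LADs of the Tmem120a/b knockdown that met an adipocyte LAD.

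Members that stayed outside LADs lay nearer to one in the knockdown lists. For the 110 members whose start lay in no LAD of any list, the median distance to the nearest LAD in preadipocytes was 188 kb, in adipocytes 281 kb, 107 kb with Tmem120a knockdown and 90.7 kb with Tmem120a/b knockdown. Over all genes of that kind (15574) the medians were 430 kb, 595 kb, 283 kb and 239 kb. The members thus lay nearer to LADs than other genes in each list, and the order of the lists was the same. In the Zfp871 to Zfp414 cluster of chromosome 17 (11 members) the starts lay 1923 to 2699 kb from a LAD in adipocytes and 29.8 to 493 kb away in preadipocytes. With Tmem120a/b knockdown they lay 26.5 to 169 kb away. With Tmem120a knockdown the start of Zfp101 was reached and the farthest lay 336 kb away.

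The members differed in base composition by their LAD state. The median GC content of the body was 38.1% for the 21 members in adipocyte LADs, 41.3% for the 33 outside them and in a LAD in a knockdown, and 45.2% for the 102 in no LAD. Over all protein-coding genes the same medians were 41.7%, 43.9% and 47.8%, so the members were lower in each state and kept the order. The ranges overlapped, from 35.8 to 46.3%, from 37.9 to 48.2% and from 35.2 to 59.0%. The number of matched fingers did not follow the states, with medians of 11, 12 and 11. Nor did the density of GATC, with medians of 2.38, 2.40 and 2.36 per kb. GC content moves with these states, and its part in the LAD calls was not tested.

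**Figure D5:**
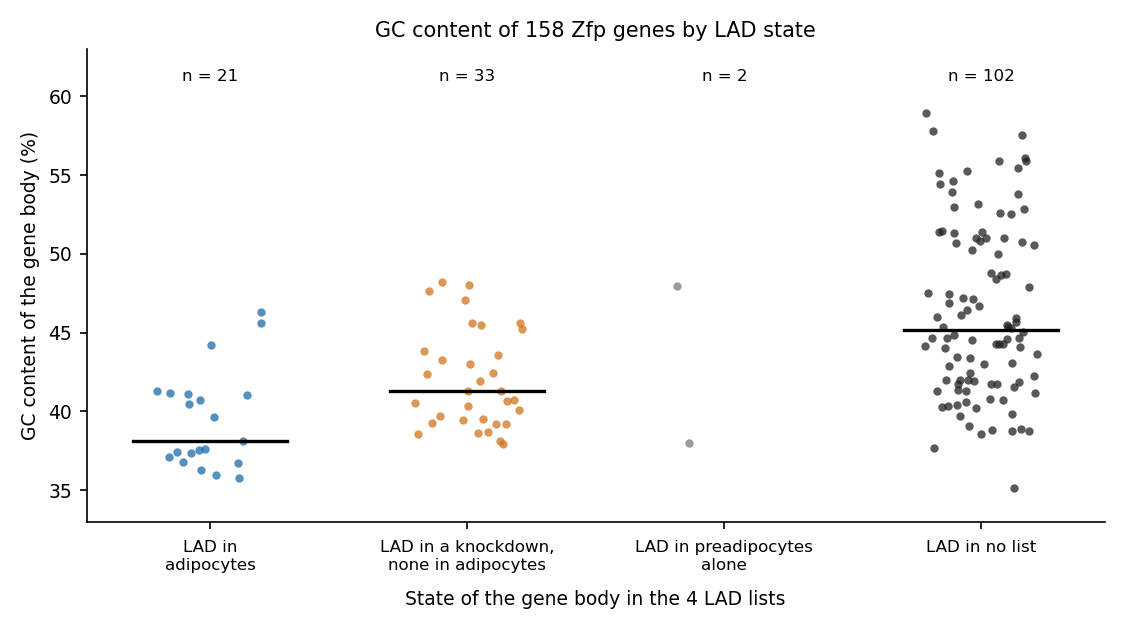
GC content of the gene body (%) for the 158 Zfp records by LAD state, each point 1 record and each line the median of a state. Medians go from 38.1% in adipocyte LADs to 41.3% in knockdown LADs without an adipocyte LAD and 45.2% in no LAD, with overlapping ranges.

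The partners through which KRAB zinc finger proteins act were counted in the same way. The list held Trim28, Setdb1, the HP1 genes Cbx1, Cbx3 and Cbx5, Atf7ip, Atf7ip2, Smarcad1, Morc3, Chd3, Chd4, Hdac1, Hdac2, Dnmt1 and Uhrf1. Of its 16 records, 1 met a LAD in preadipocytes, 1 in adipocytes, 2 with Tmem120a knockdown and 1 with Tmem120a/b knockdown, where the shares over all genes were 26.2%, 23.3%, 27.5% and 29.5%, so most protein-coding genes also lay outside. Atf7ip2, a relative of the Setdb1 partner Atf7ip, was wholly inside in every list, and the second one with Tmem120a knockdown was Smarcad1, a chromatin remodeller, at 4.42% of its body. Trim28, on chromosome 7, lay outside LADs with its start 48.7, 39.5, 48.6 and 41.9 kb from one in the 4 lists in order. Setdb1 lay 943 to 1054 kb away. Of 5 genes of the lamina and inner nuclear membrane (Lmnb1, Lmnb2, Lmna, Lbr and Emd), none met a LAD in 3 lists. With Tmem120a/b knockdown Lmnb1 (95.0% of its body) and Lbr (65.5%) did, in a list where 29.5% of all genes did.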

How the data were processed

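DamID data from 8 samples were used, a library of Dam and a library of the LaminB1 fusion for every one of 4 conditions. The authors mapped reads to mm9 with BWA (limma is also named in the processing notes), formed log ratios of the fusion over Dam per DpnI fragment, segmented them with DNAcopy and deposited positions of LADs, 1 list a condition, and of differential regions. All 2021 released and 1808 recruited regions equalled pieces of the subtraction of the 2 lists, which has 3199 and 3052 pieces; the rule that kept them is not given in the sources used here. Depth is unknown, so no interval is given.

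A gene met a LAD when its body overlapped one by at least 1 base, and a start site when its first base lay inside. Starts are counted from 1. Overlaps were computed with numpy 2.4.6 and pandas 2.3.3 in Python 3.11.15, plots were drawn with matplotlib 3.10.9, and the overlap code was checked on simulated intervals. Members were named if they met a released or recruited region, if their start was in a LAD in 1 of the preadipocyte and adipocyte lists or differed between adipocytes and both knockdowns, if they ended a cluster, or if they were Zfp30, Zfp568, Zfp57, Zfp36 or Zfp296; others were named after their values were seen. Members, lists and clusters were chosen with earlier results of these data known.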

Additional observations from a re-analysis of the deposited data

How the results depend on the processing

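Of 75 values recomputed under other settings, 55 lay within 1.5 times the value given and 20 did not. With LADs under 100 kb left out, bodies in LADs numbered 19 in the Tmem120a knockdown and 19 in the Tmem120a/b knockdown, starts 16 and 17, members gained in the knockdowns 5 and 7, and members lost 7 and 9, while 3 members left LADs and 4 entered them with differentiation. With at least 50% of the body required, 5 left and 4 entered, 4 were lost in the Tmem120a knockdown, and 3 met a released region. With gaps under 50 kb closed, 0 were lost in the Tmem120a knockdown. With all subtraction pieces, 12 met a released and 6 a recruited region. By start sites alone (added after seeing the data), 4 left and 4 entered LADs and 5 were lost in the Tmem120a knockdown. The causes were not tested, beyond the fewer LADs that a length limit leaves. Settings that also counted symbols with a suffix, 5 kb around the start, 1 record per symbol, LADs of at least 30 kb (the last 2 also added after seeing the data) or clusters at 500 kb and 2 Mb moved no value by over 1.5 times. No paired analysis was possible because each condition has 1 library pair and no test was made.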

Other observations

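Related finger genes outside the naming rule gave further values. The 25 Zscan and Zkscan genes carry a SCAN domain beside their fingers. Their bodies met a LAD in 7 cases in preadipocytes, 7 in adipocytes, 9 with Tmem120a knockdown and 10 with Tmem120a/b knockdown. These lay above the share of all genes in each list (26.2%, 23.3%, 27.5% and 29.5%), unlike the members. Of the 18 outside adipocyte LADs, 2 and 4 met one in the knockdowns, where the shares over all such genes were 7.99% and 10.9%. Of 12 Zfp records of chromosomes 7, 13 and 17 with a suffix after the number, 1, 0, 1 and 1 met a LAD in the same order. These were 8.33%, 0.0%, 8.33% and 8.33%, below the share of all genes in each list. Among the 158 members, Zfp72 and Zfp825 on chromosome 13 lay beside LADs rather than in them, and neither body met one. Of the 112 kb from one gene to the other, 45.6% was in LADs in preadipocytes and 0.0% in adipocytes. With Tmem120a knockdown it was 65.5% and with Tmem120a/b knockdown 60.9%. Their starts lay 493 and 387 kb from a LAD in adipocytes and 7.64 to 15.1 kb away in the knockdowns.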
